A study of Mus musculus with 12 samples.

Results

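The 10 genes of the circadian clock named here were read one by one in single-cell RNA-sequencing libraries of the mouse mammary gland: Arntl, Clock, Npas2, Per1, Per2, Per3, Cry1, Cry2, Nr1d1 and Dbp. They were found by their symbols among the 27998 genes of each matrix, and each symbol gave 1 row. Their levels were taken in fibroblasts and in immune cells of 12 libraries, each from the fourth mammary glands of female C57BL/6J mice aged 43 weeks. In 11 libraries the mice had received 4-vinylcyclohexene diepoxide (VCD), which depletes ovarian follicles and models menopause, by injection at 160 mg/kg/day for 15 days. Intact was the library of mice with ovarian function.

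Of the VCD libraries, VCD_Vehicle received the oil vehicle with no hormone. VCD_Vehicle_NormEnv received the same vehicle but was housed where the cage plastic may have given some exposure to polybrominated diphenyl ethers (PBDE, flame retardants). VCD_E2 received estradiol (E2) at 1 µg per animal per day for 1 week, VCD_E2_P4 received E2 with progesterone (P4) at 1 mg per animal per day, and VCD_E2_ICI received E2 with 5 mg of the estrogen receptor antagonist ICI. VCD_Low_PBDE, VCD_Low_E2 and VCD_Low_E2_P4 had the low PBDE diet for 20 weeks (PBDE-47 at 0.05 mg/kg/day) with no hormone, E2 or E2 + P4. VCD_High_PBDE, VCD_High_PBDE_E2 and VCD_High_PBDE_E2_P4 had the high dose for 1 week (PBDE-47 at 1 mg/kg/day) with the same hormone arms, so dose and duration cannot be told apart. Groups without PBDE ate matched food with DMSO, and hormones were given in sesame oil. Each group was 1 library, and how many animals gave each library is not given in the sources used here. Neither is the hour at which the glands were collected, so collection time and treatment cannot be told apart in any comparison of these genes.

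The circadian clock is a feedback loop of transcription that runs in nearly every cell of the body with a period of about a day. The protein of Arntl (BMAL1) pairs with CLOCK or NPAS2 and activates genes through E-box motifs, among them the Per and Cry genes, whose proteins accumulate and repress that activation. The same pair drives Nr1d1, whose protein REV-ERBα represses Arntl through ROR elements, and Dbp, which acts on D-box motifs. In most tissues the transcripts of Arntl and Npas2 therefore peak at the opposite phase to those of Dbp, Nr1d1 and the Per genes, and clock transcripts follow the time of day at which a tissue is taken.

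The stretches below are shown because they hold letters of the motifs named above. RefSeq start sites on GRCm38.p6 were matched for 9 of the 10 genes, with Per2 named only, and 4 of the 9 held at least 1 match (E-box 2, D-box 2, ROR element 1). Clock, Npas2, Cry2, Nr1d1 and Dbp held none in this window. The searched letters, on both strands and within 250 bases before to 50 bases after a start site, were CACGTG for the E-box, TTATGNAA for the D-box and TAGGTCA for the core of the ROR element. None of these sets of letters overlapped another in the printed stretches. Capitals mark the matches, and each stretch runs 5′ to 3′ on the strand of its gene.
Arntl, second start site, chr7:113207529-113207558 (+): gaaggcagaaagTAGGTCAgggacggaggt
Per1, chr11:69098699-69098948 (+): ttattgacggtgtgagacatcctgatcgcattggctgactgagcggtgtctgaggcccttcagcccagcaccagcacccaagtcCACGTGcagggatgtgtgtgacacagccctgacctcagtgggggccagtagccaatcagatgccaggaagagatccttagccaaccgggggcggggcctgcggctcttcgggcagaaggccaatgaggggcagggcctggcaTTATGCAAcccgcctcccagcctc
Per3, chr4:151044666-151044915 (-): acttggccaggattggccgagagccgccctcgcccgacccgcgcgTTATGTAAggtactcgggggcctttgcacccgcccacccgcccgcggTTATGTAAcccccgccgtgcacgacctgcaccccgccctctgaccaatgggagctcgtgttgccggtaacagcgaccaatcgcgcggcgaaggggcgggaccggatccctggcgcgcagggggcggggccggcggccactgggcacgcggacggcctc
Cry1, chr10:85185055-85185304 (-): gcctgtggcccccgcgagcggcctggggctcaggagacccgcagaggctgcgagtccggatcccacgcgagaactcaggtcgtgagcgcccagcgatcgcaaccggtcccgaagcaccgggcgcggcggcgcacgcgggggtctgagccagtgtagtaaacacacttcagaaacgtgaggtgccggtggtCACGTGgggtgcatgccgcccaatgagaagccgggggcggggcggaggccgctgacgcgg

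The Arntl stretch lay inside the gene's annotated span, with the ROR letters 30 bases downstream of the second start site. In Per1 the E-box letters stood 166 bases and the D-box letters 24 bases upstream of the start, inside the gene's annotated span. Per3 carried D-box letters at 205 and 158 bases upstream, in the bases just before the annotated gene, and Cry1 carried E-box letters 60 bases upstream, also before the annotated gene. Over 32851 RefSeq promoters of the same length, E-box letters occurred in 7.15%, D-box letters in 3.385% and the ROR letters in 2.606%. A match describes the letters in this window and not a bound site.

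All 10 genes are protein coding on GRCm38 (GENCODE M21). Arntl (ENSMUSG00000055116) lies at chr7:113207465-113314126 on the plus strand, Clock at chr5:76209868-76304792 on the minus strand and Npas2 at chr1:39193731-39363236 on the plus strand. Cry1 lies at chr10:85131700-85185064, Cry2 at chr2:92403646-92434043, Per2 at chr1:91415982-91459324 and Per3 at chr4:151003652-151044665, all on the minus strand. Per1 lies at chr11:69095217-69109960 on the plus strand, Nr1d1 at chr11:98767932-98775333 on the minus strand and Dbp (ENSMUSG00000059824) at chr7:45705088-45710203 on the plus strand.

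The 12 libraries held 58620 barcodes, of which 46257 passed the filters, with 41737881 to 109224969 UMIs (unique molecular identifiers, each standing for 1 captured transcript) per library. Clusters built without any clock gene gave 34266 fibroblasts (1528 to 4302 per library) and 5313 immune cells (233 to 861 per library). Levels below are CPM, the UMIs of a gene per 1000000 UMIs of that class in that library, and the class totals were 30785789 to 76657994 UMIs for fibroblasts and 2682073 to 9781616 for immune cells. The 6 fibroblast markers summed to 29235 to 49307 CPM in fibroblasts and 274.41 to 759.75 in immune cells, and the 6 immune markers to 30.572 to 60.025 and 6811.9 to 8272.2 CPM. Collagen transcripts in immune cells stood at 0.782% to 1.65% of their level in fibroblasts. Over all genes of at least 20 CPM in fibroblasts, the median absolute deviation of a library from the median over libraries was 0.0645 to 0.125 on the log2 scale. VCD_Low_PBDE was lowest in 19.05% of these genes and VCD_High_PBDE_E2 highest in 18.29%, the largest share of each kind. At most 185 barcodes, and at most 3.75% of the smaller library, were shared by a pair of libraries. Pairs among Intact, VCD_Vehicle, VCD_E2, VCD_E2_P4 and VCD_Low_PBDE, which share a code in the matrix names given below, had 95 to 185 in common. VCD_Low_E2 and VCD_Low_E2_P4 had 84 in common, and every other pair at most 35.

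Among the activators, Arntl varied most between libraries. In fibroblasts it stood at 19.4 CPM in Intact, 23.2 in VCD_Vehicle, 22.8 in VCD_Vehicle_NormEnv, 18.1 in VCD_E2, 21.2 in VCD_E2_ICI, 12.4 in VCD_E2_P4, 15.6 in VCD_Low_PBDE, 17.3 in VCD_Low_E2, 13.7 in VCD_Low_E2_P4, 20.8 in VCD_High_PBDE, 4.72 in VCD_High_PBDE_E2 and 12.7 in VCD_High_PBDE_E2_P4. VCD_High_PBDE_E2 was far below the other libraries, the 3 libraries with E2 + P4 came next, and both vehicle libraries were at the top. The lowest value rested on 180 UMIs, with an exact Poisson 95% interval of 4.06 to 5.46 CPM that covers counting error only, as do all such intervals here. The next library up, VCD_E2_P4, was 2.64 times as high. Of the 11 pairs of neighbours in the order of Arntl levels, 9 had overlapping intervals.

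Npas2, the partner that can stand in for Clock, ranged in fibroblasts from 6.17 CPM in VCD_High_PBDE_E2 through a median of 9.32 to 10.9 in VCD_Vehicle_NormEnv. Clock ranged from 34.2 CPM in VCD_E2_P4 through a median of 39.6 to 46.9 in Intact. All 11 neighbouring pairs overlapped for both genes, while the intervals of the lowest and the highest library did not. The lowest library for Npas2 was the one that was lowest for Arntl, and the highest Npas2 values were in VCD_Vehicle_NormEnv and Intact.

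Among the repressors, Cry2 and the Per genes spread widely and Cry1 little. Cry1 ranged from 9.50 CPM in VCD_Low_E2 through a median of 11.4 to 13.9 in VCD_Vehicle. Cry2 ranged from 26.7 CPM in VCD_E2_P4 through a median of 39.6 to 94.6 in VCD_High_PBDE_E2. For Cry2, VCD_High_PBDE_E2_P4 was close to the top at 89.1 CPM with an overlapping interval, and the third library, VCD_Low_PBDE, stood apart from both at 52.6 CPM.

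Per1, which also answers acute signals such as stress and glucocorticoids, ranged from 23.1 CPM in VCD_E2 through a median of 29.6 to 49.5 in VCD_High_PBDE_E2. Per2 ranged from 1.89 CPM in VCD_Vehicle through a median of 3.95 to 11.4 in VCD_High_PBDE_E2. Per3 ranged from 12.8 CPM in VCD_Vehicle through a median of 24.6 to 62.0 in VCD_High_PBDE_E2. The same library was therefore highest for Per1, Per2, Per3 and Cry2, and VCD_Vehicle was lowest for Per2 and Per3. The interval of that highest library did not overlap the next for Per2 (10.4 to 12.5 CPM) or Per3 (59.6 to 64.6 CPM), but did for Per1.

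Nr1d1, the repressor of Arntl, ranged in fibroblasts from 21.4 CPM in VCD_E2 through a median of 28.5 to 47.0 in VCD_High_PBDE_E2. Dbp, an output gene of the loop, stood at 26.4 CPM in Intact, 22.3 in VCD_Vehicle, 22.2 in VCD_Vehicle_NormEnv, 24.8 in VCD_E2, 43.2 in VCD_E2_ICI, 51.8 in VCD_E2_P4, 61.0 in VCD_Low_PBDE, 26.7 in VCD_Low_E2, 59.9 in VCD_Low_E2_P4, 48.1 in VCD_High_PBDE, 127.6 in VCD_High_PBDE_E2 and 65.4 in VCD_High_PBDE_E2_P4. VCD_High_PBDE_E2 was highest for both genes, and 5 libraries lay close together at the bottom for Dbp. For Dbp that library had an interval of 124.02 to 131.22 CPM from 4863 UMIs and was 1.95 times the next. For Nr1d1 it was 1.35 times the next, VCD_E2_ICI, whose interval it did not overlap.

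Thus 1 library, VCD_High_PBDE_E2, was at an extreme for 8 of the 10 genes in fibroblasts, lowest for Arntl and Npas2 and highest for Cry2, Per1, Per2, Per3, Nr1d1 and Dbp. Over the 5496 genes of at least 20 CPM it was highest in 18.3%, the largest share of any library with 12.8% for the next, and lowest in 5.42%, and its median absolute deviation of 0.107 was inside the range of the other libraries. It had 2139 fibroblasts (1528 to 4302 over libraries) and 38116280 fibroblast UMIs (30785789 to 76657994), both in the lower part of the range.

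**Figure D1:**
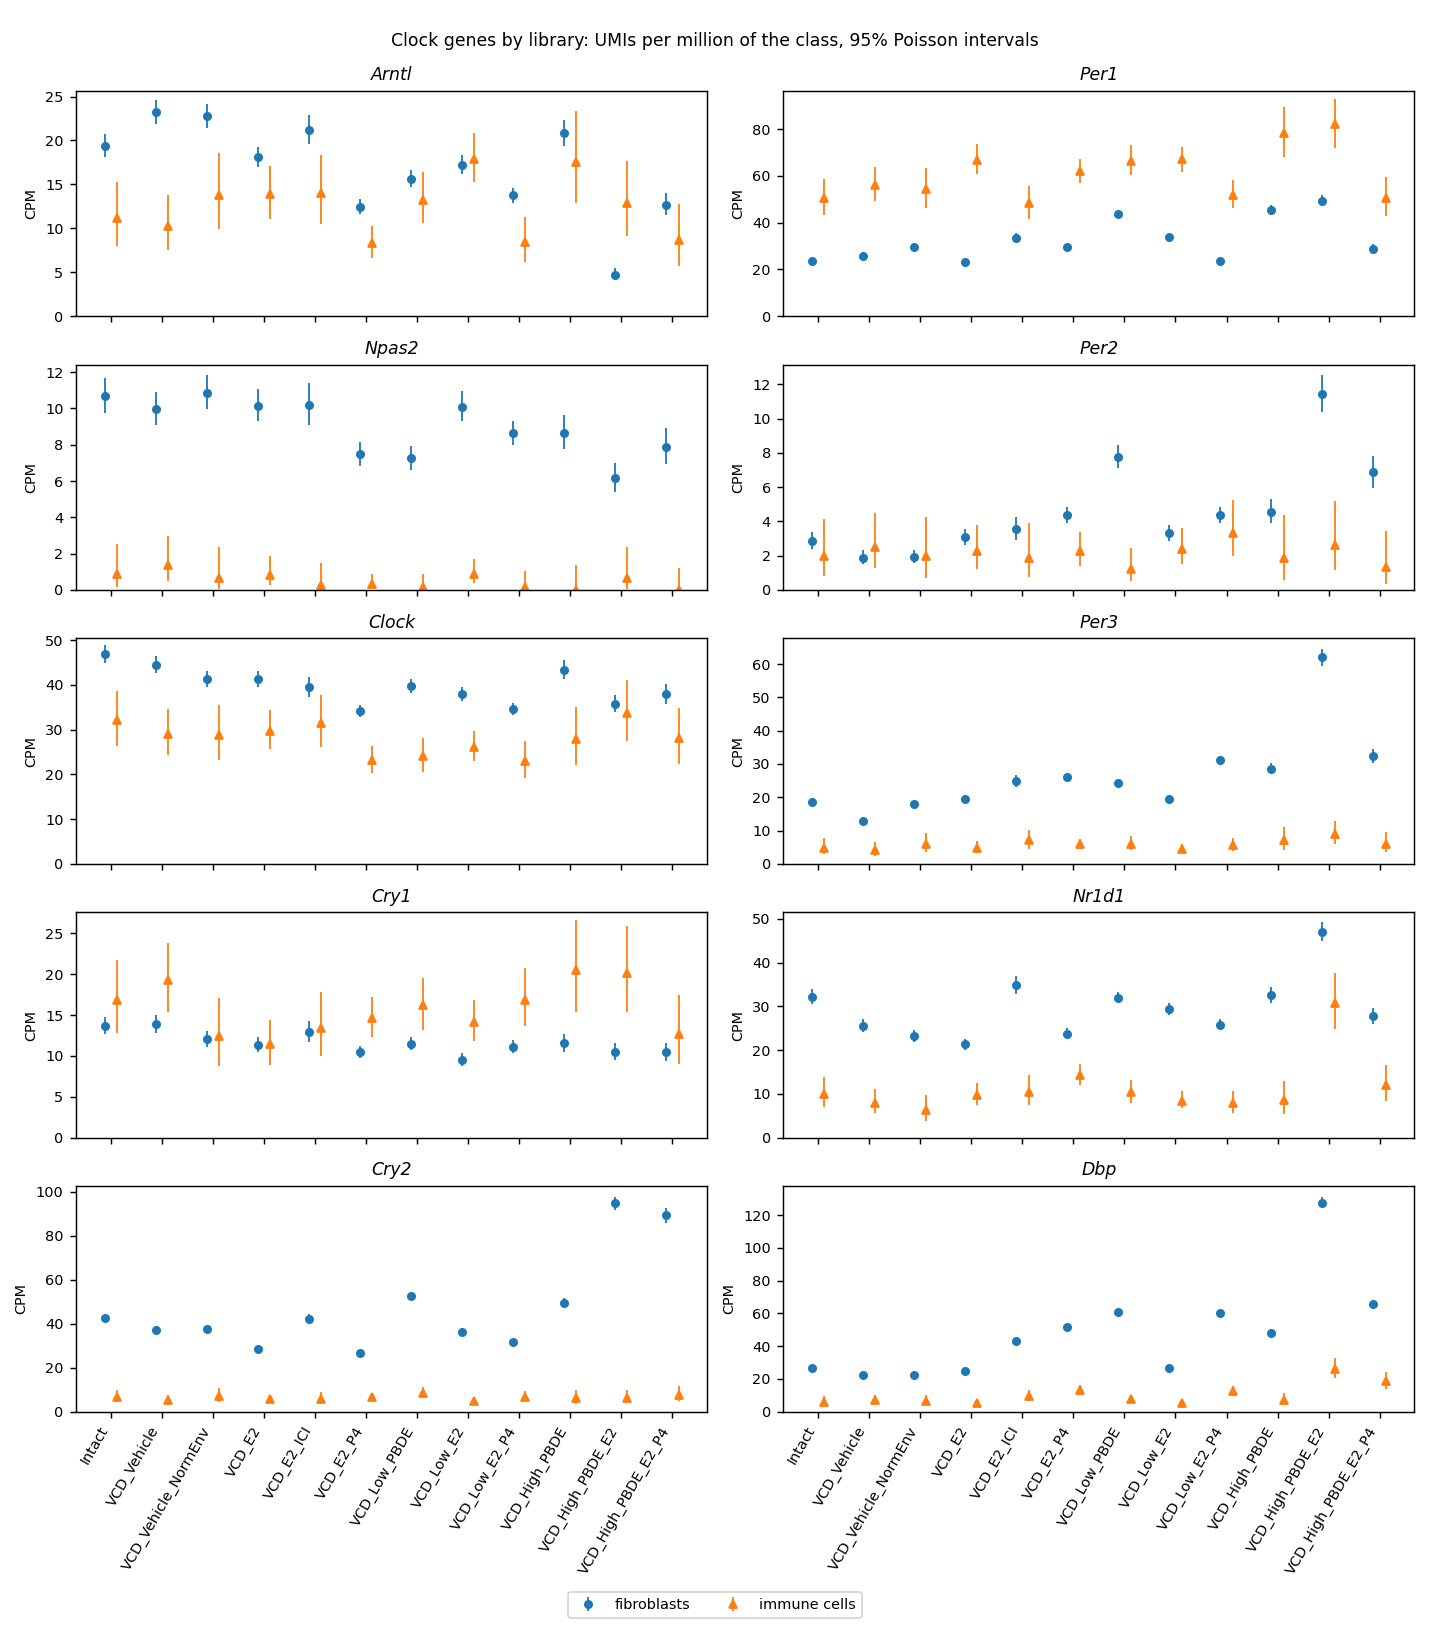
Level of each clock gene in CPM in each of the 12 libraries, in fibroblasts and in immune cells, with exact Poisson 95% intervals that cover counting error only. In fibroblasts the library VCD_High_PBDE_E2 is lowest for Arntl at 4.72 CPM and highest for Dbp at 127.6 CPM.

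The spread of a gene over libraries was measured as the SD of log2(CPM + 1) over the 12 libraries and set beside that of the 5496 genes of at least 20 CPM, whose median SD was 0.137. In fibroblasts the SD was 0.77 for Dbp, 0.63 for Per2, 0.57 for Arntl, 0.57 for Cry2 and 0.55 for Per3. These 5 genes lay above 98.03% to 99.22% of the genes of that set. Per1 (SD 0.37) and Nr1d1 (0.30) lay above 93.72% and 90.19%, Npas2 (0.23) above 82.08%, and Cry1 (0.15) and Clock (0.14) were near the middle. Counting alone would have given 0.033 for Dbp, 0.052 for Arntl and 0.084 for Per2, so counting error was a small part of the spread of those 3 genes.

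In immune cells Dbp stood at 6.01 CPM in Intact, 7.10 in VCD_Vehicle, 6.54 in VCD_Vehicle_NormEnv, 5.16 in VCD_E2, 9.44 in VCD_E2_ICI, 13.4 in VCD_E2_P4, 7.71 in VCD_Low_PBDE, 5.21 in VCD_Low_E2, 12.5 in VCD_Low_E2_P4, 7.08 in VCD_High_PBDE, 26.1 in VCD_High_PBDE_E2 and 18.4 in VCD_High_PBDE_E2_P4. The highest 4 libraries were VCD_High_PBDE_E2 and the 3 with E2 + P4. The interval of the highest library was 20.7 to 32.6 CPM and overlapped that of the second, 13.8 to 23.9 CPM. Nr1d1 in immune cells ranged from 6.21 CPM in VCD_Vehicle_NormEnv through a median of 9.85 to 30.8 in VCD_High_PBDE_E2, and here the highest library, with an interval of 24.8 to 37.7 CPM, was 2.15 times the next and did not overlap it.

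Arntl in immune cells stood at 11.2 CPM in Intact, 10.3 in VCD_Vehicle, 13.7 in VCD_Vehicle_NormEnv, 13.9 in VCD_E2, 14.0 in VCD_E2_ICI, 8.28 in VCD_E2_P4, 13.3 in VCD_Low_PBDE, 17.9 in VCD_Low_E2, 8.45 in VCD_Low_E2_P4, 17.5 in VCD_High_PBDE, 12.9 in VCD_High_PBDE_E2 and 8.68 in VCD_High_PBDE_E2_P4. The 3 libraries with E2 + P4 were the lowest, while VCD_High_PBDE_E2, the lowest by far in fibroblasts, was in the middle here, though second lowest in the macrophage-like cells described below. All 11 neighbouring pairs overlapped.

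The other genes were read in the immune cells by their ranges. Clock ranged from 23.0 to 33.7 CPM, Per1 from 48.3 to 82.0, Cry1 from 11.5 to 20.5 and Cry2 from 4.99 to 8.63. Per2 ranged from 1.23 to 3.31 CPM and Per3 from 4.13 to 8.93. The SDs of Per2 (0.26) and Cry2 (0.20) were no larger than the 0.33 and 0.24 that counting alone would give, so differences of these 2 genes between libraries were not detectable in immune cells at this depth. The SD of Per3 (0.27) was close to its 0.25 from counting. Npas2 had 32 UMIs in all immune cells together and was at 0 in VCD_High_PBDE and VCD_High_PBDE_E2_P4. Dbp (SD 0.68, 0.21 from counting) lay above 98.79% and Nr1d1 (0.54, 0.20 from counting) above 97.09% of 5524 genes of at least 20 CPM. Both are below 20 CPM in immune cells and so carry more counting error than the genes of that set, as Arntl, Npas2, Per2 and Cry1 do in fibroblasts.

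**Figure D2:**
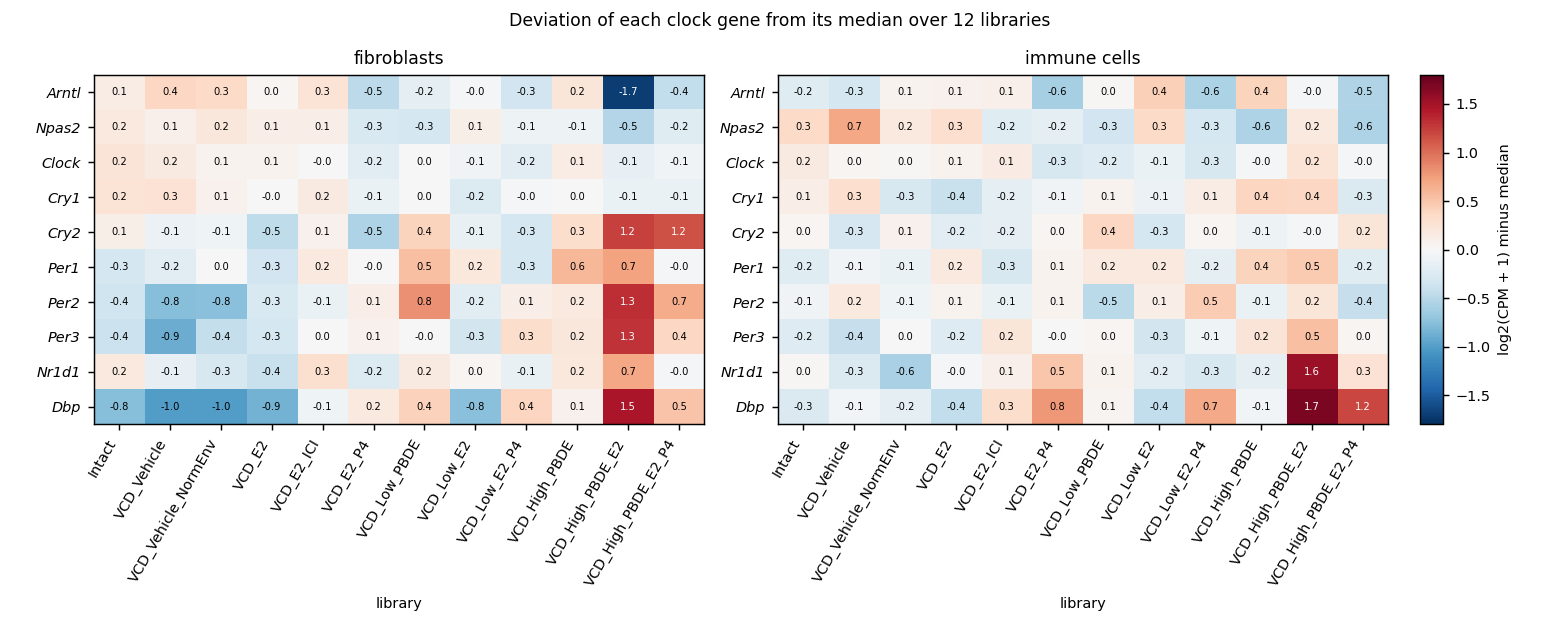
Deviation of each clock gene from its median over the 12 libraries on the scale of log2(CPM + 1), by library and cell class. Arntl and Dbp lie on opposite sides of their medians in 10 of 12 libraries in fibroblasts and in 8 of 12 in immune cells.

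Genes of opposite phase can be read against one another to ask whether libraries differ in the state of the clock, as they would if glands were taken at different hours. In fibroblasts Arntl and Dbp lay on opposite sides of their medians over libraries in 10 of 12 libraries, Arntl and Per2 in 10 and Arntl and Per3 in 8. Dbp and Per2, both read against Arntl, lay on the same side in 12 of 12. In immune cells the count for Arntl and Dbp was 8, for Arntl and Per2 8 and for Arntl and Per3 4, while Dbp and Per2 lay on the same side in 6 of 12.

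Across the 12 libraries, 20 relations of Arntl or Npas2 with a gene of the opposite phase and 10 relations of a gene with itself between the classes were computed, and their p-values from permutation tests (two-sided, 100000 resamples) were adjusted together over these 30 by Benjamini-Hochberg. In fibroblasts Arntl was lower where Dbp was higher (Pearson's r -0.84, permutation p = 0.00071, adjusted p = 0.003343, Spearman's rho -0.83, adjusted p = 0.0159). The same held for Arntl with Per2 (r -0.83, permutation p = 0.00074, adjusted p = 0.003343, rho -0.75, adjusted p = 0.0355) and with Per3 (r -0.87, permutation p = 0.00078, adjusted p = 0.003343, rho -0.76, adjusted p = 0.0355). Npas2 gave r -0.92 with Dbp (permutation p = 4e-05, adjusted p = 0.0006, rho -0.86, adjusted p = 0.0159) and r -0.92 with Per2 (permutation p = 1e-05, the smallest these permutations can give, adjusted p = 0.0003, rho -0.83, adjusted p = 0.0159). With Per3 it gave r -0.81 (permutation p = 0.00103, adjusted p = 0.003862, rho -0.70, adjusted p = 0.0474). These relations are of all fibroblasts together. The populations described below differ in their levels of these genes and, between libraries, in cell number. The part of population shares in the relations is not given here.

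The relations of these 2 activators with Nr1d1 and Per1 were of the same sign but did not pass. For Arntl r was -0.54 with Nr1d1 (adjusted permutation p = 0.1802) and -0.42 with Per1 (0.2579). For Npas2 it was -0.48 with Nr1d1 (adjusted permutation p = 0.1985) and -0.61 with Per1 (0.1004).

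The relations were read again with fewer libraries, which also narrows their range. With the 2 libraries farthest from the median of the gene on the x axis left out, r was -0.71 for Arntl with Dbp, -0.77 with Per2 and -0.70 with Per3 (adjusted permutation p = 0.1101, 0.0747 and 0.1101, n = 10). It was then -0.84 for Npas2 with Dbp, -0.80 with Per2 and -0.72 with Per3 (adjusted permutation p = 0.05385, 0.05385 and 0.1101), so all 6 kept their sign and none passed. Without VCD_High_PBDE_E2 alone, a choice made after its values were seen, Arntl with Per2 (r -0.72, adjusted permutation p = 0.04991), Npas2 with Dbp (-0.86, 0.025) and Npas2 with Per2 (-0.86, 0.0114) passed. Arntl with Dbp (-0.72, 0.05797) and with Per3 (-0.68, 0.05855) and Npas2 with Per3 (-0.66, 0.06955) did not, and Arntl with Nr1d1 went to 0.17.

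Names of the deposited matrices carry 1 of 2 codes, whose meaning is not given, with Intact, VCD_Vehicle, VCD_E2, VCD_E2_P4 and VCD_Low_PBDE under one and the other 7 libraries under the other. Those 7 include VCD_High_PBDE_E2, the extreme library for these genes. Within the 7 libraries r was -0.86 for Arntl with Dbp, -0.90 with Per2 and -0.91 with Per3 (exact permutation test, adjusted p = 0.04563, 0.02857 and 0.04762). It was -0.95 for Npas2 with Dbp, -0.98 with Per2 and -0.97 with Per3 (exact permutation test, adjusted p = 0.007937 for each). No correlation is given over the 5 libraries under the first code, a number below the limit set for one.

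In immune cells none of the 10 relations passed by r, and not all were negative: Arntl with Per1 gave r 0.51. Arntl and Dbp gave r -0.52 (adjusted permutation p = 0.1813) and rho -0.60 (0.12), and Npas2 with Per3 passed by rho alone (-0.71, adjusted permutation p = 0.0474, on 32 UMIs of Npas2). Without VCD_High_PBDE_E2, a choice made after its values were seen, Arntl and Dbp in immune cells gave r -0.75 (adjusted permutation p = 0.03925). With the libraries farthest from the median of Arntl left out, r was -0.44 (adjusted permutation p = 0.4585, n = 10). Within the 7 libraries of one code it was -0.64 (exact permutation test, adjusted p = 0.2903), and neither of these values passed.

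**Figure D3:**
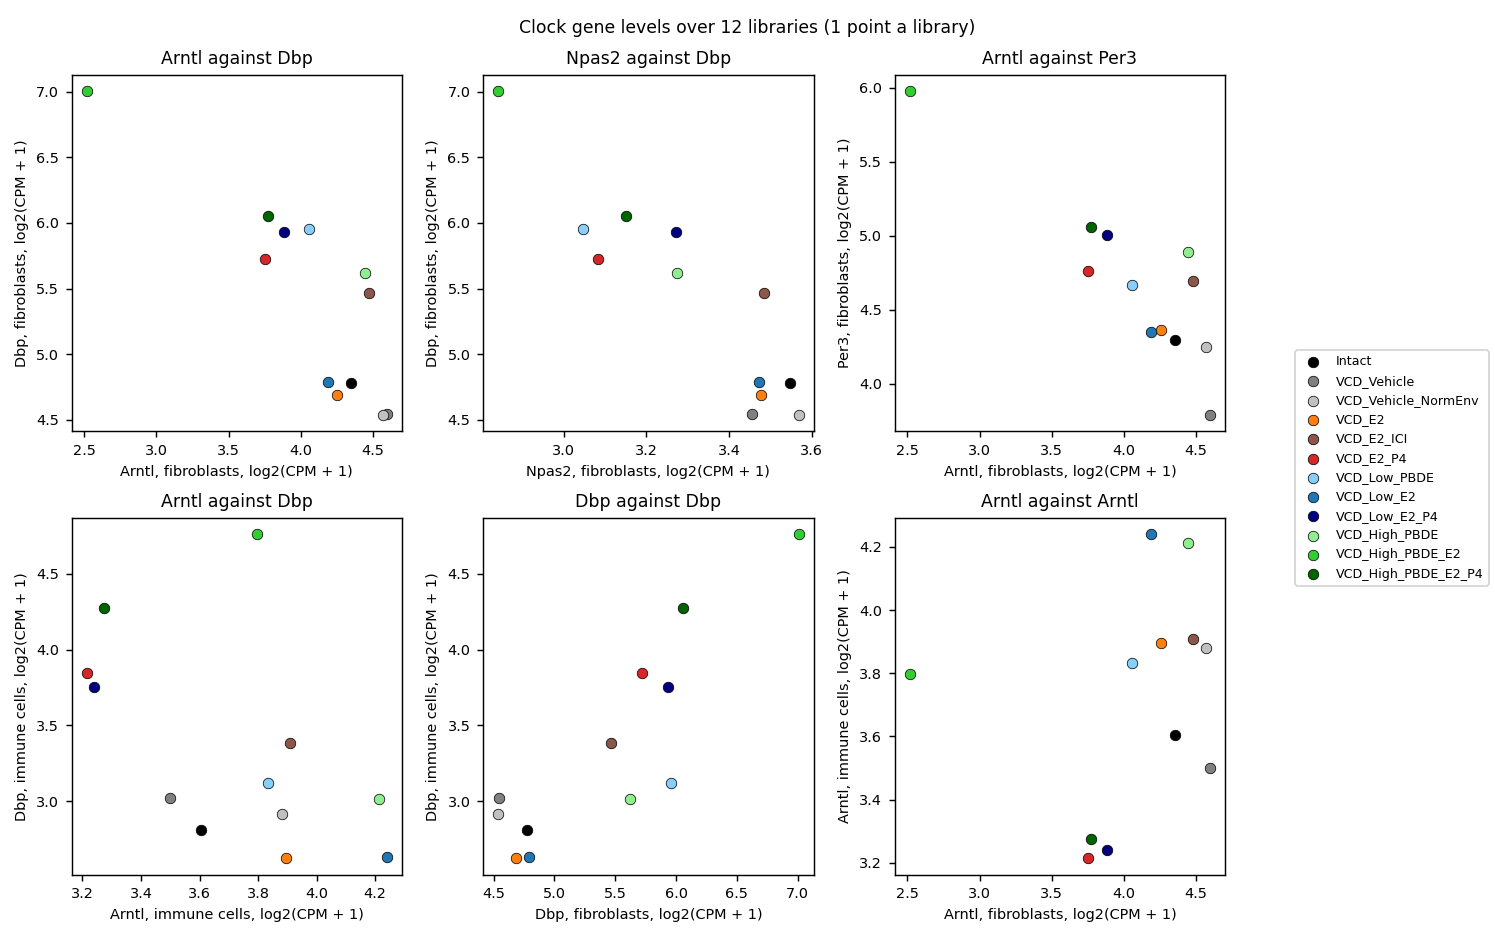
Level of Arntl against that of Dbp on the scale of log2(CPM + 1), 1 point per library, in fibroblasts and in immune cells, and Dbp in immune cells against Dbp in fibroblasts. Arntl is lower where Dbp is higher in fibroblasts (r -0.84 over 12 libraries), the relation in immune cells does not pass (r -0.52), and Dbp in the 2 classes moves together (r 0.87).

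The levels of Dbp in the 2 classes of the same library moved together (r 0.87, permutation p = 0.00022, adjusted p = 0.0022, rho 0.79, adjusted p = 0.02385), as did those of Per3 (r 0.85, permutation p = 0.00061, adjusted p = 0.003343, rho 0.71, adjusted p = 0.0474). Per1 (r 0.69, adjusted permutation p = 0.05033) and Nr1d1 (r 0.66, 0.09153) did not pass. Values were smaller for Clock (0.50), Npas2 (0.45), Cry2 (0.39), Arntl (0.25), Cry1 (0.19) and Per2 (-0.23).

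Free RNA of a library enters both of its classes. With the fibroblast profile subtracted from the immune counts at the level of the collagens, r was 0.86 for Dbp (adjusted permutation p = 0.003) and 0.83 for Per3. Without the 2 farthest libraries r was 0.78 for Dbp (adjusted permutation p = 0.0747) and 0.57 for Per3 (0.2999), and neither passed. Without VCD_High_PBDE_E2 both passed, at 0.78 (adjusted permutation p = 0.0303) and 0.72 (0.04991). Within the 7 libraries of one code, which include VCD_High_PBDE_E2, r was 0.92 for Dbp (exact permutation test, adjusted p = 0.01935) and 0.75 for Per3 (0.1768).

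Fibroblasts were divided into 4 named populations by markers after the study's names, of which clock genes were no part: 10891 Fib_0-like cells (marked by Sema3c, Cd55 and Akr1c18), 7693 Fib_1-like cells (Cxcl14, Smoc2 and Col15a1), 3923 Fib_2-like cells (Penk, Enpp2 and Mdk) and 4062 Fib_3-like cells (Gas6, Cst3 and Fmo2). The other fibroblasts stayed unnamed. Values over all libraries are given as a description, with no test. Dbp stood at 90.0 CPM in Fib_0-like cells, which were highest in 12 of 12 libraries, at 48.0 CPM in Fib_3-like, 21.1 in Fib_2-like and 11.6 in Fib_1-like cells. Arntl was highest in Fib_1-like cells (22.3 CPM) in 12 of 12 libraries, and stood at 16.5 CPM in Fib_2-like, 14.2 in Fib_3-like and 13.8 in Fib_0-like cells.

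The order of the populations differed from gene to gene. Npas2 was lowest in Fib_0-like cells in 12 of 12 libraries (3.68 CPM) and highest in Fib_2-like cells in 9 (17.7 CPM). Nr1d1 was lowest in Fib_1-like cells in 12 of 12 libraries (15.9 CPM) and about equal in Fib_0-like (37.9 CPM) and Fib_2-like cells (38.1 CPM). Per3 was highest in Fib_0-like cells in 9 libraries (37.2 CPM), Cry2 in Fib_0-like cells in 9 (62.4 CPM), Per1 in Fib_0-like cells in 8 (43.8 CPM) and Cry1 in Fib_2-like cells in 10 (16.0 CPM). Per2 was lowest in Fib_2-like cells in 11 libraries (2.64 CPM), and Clock was at 36.0 to 43.3 CPM in all 4 populations.

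The extreme library kept its place inside each population for Arntl, Dbp and Per3. In VCD_High_PBDE_E2, Dbp was at 234.5 CPM in Fib_0-like, 172.1 in Fib_3-like, 75.9 in Fib_1-like and 59.6 in Fib_2-like cells, the highest of the 12 libraries in each. Arntl was at 2.97, 2.08, 5.14 and 4.55 CPM in the same order, the lowest in each, on 5 to 36 UMIs. The place of that library was thus the same within each population for these genes. The other 5 genes kept it in some populations only. Cry2 was highest there in Fib_0-like cells (186.3 CPM) but not in the other 3 populations, and Nr1d1 was highest in all but Fib_0-like cells. Per1 was highest in Fib_1-like and Fib_2-like cells, Per2 in all but Fib_2-like cells, and Npas2 was lowest in all but Fib_2-like cells.

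The populations share library and depth. Pearson's r over 12 libraries was taken between the level of a gene in a population and its mean level in the other 3. It was 0.93 to 0.97 for Arntl, 0.89 to 0.94 for Dbp, 0.85 to 0.94 for Per3 and 0.77 to 0.94 for Per2. It was 0.50 to 0.93 for Nr1d1 and 0.43 to 0.79 for Cry2. For Npas2 it was 0.87 to 0.93 in 3 populations and -0.26 in Fib_2-like cells, and for Clock 0.44 to 0.72 in the same 3 and -0.22 in Fib_2-like cells. For Per1 it was 0.81 and 0.84 in Fib_3-like and Fib_1-like cells and 0.25 and 0.24 in Fib_0-like and Fib_2-like cells, and for Cry1 it was 0.04 to 0.48.

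**Figure D4:**
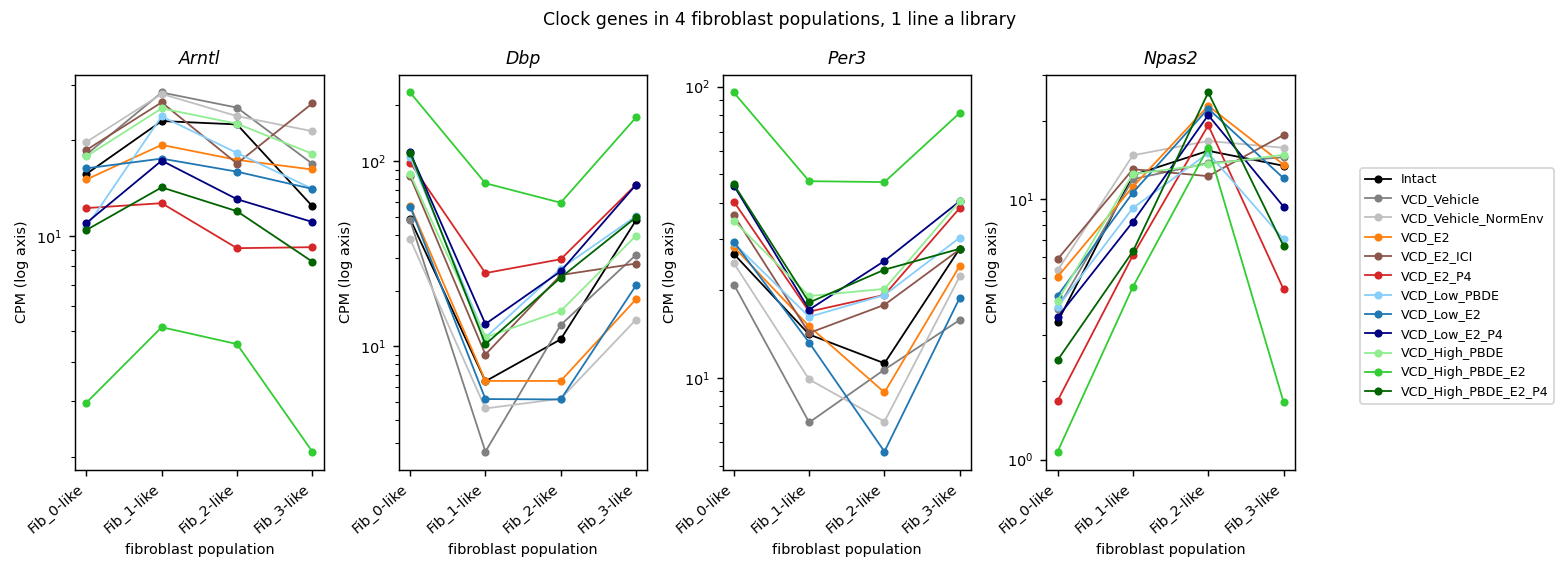
Level of clock genes in CPM (log axis) in the 4 named fibroblast populations (Fib_0-like to Fib_3-like), 1 point per library. Dbp is highest in Fib_0-like cells and Arntl in Fib_1-like cells in 12 of 12 libraries.

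Among immune cells, 692 macrophage-like cells (31 to 98 per library) of 5313 held 339 of 668 Nr1d1 UMIs and 261 of 589 Dbp UMIs. Nr1d1 stood at 39.7 CPM in them over all libraries, at 2.41 CPM in 438 dendritic cell-like cells and at 0.241 CPM, a single UMI, in 679 NK cell-like cells, where 11 libraries were at 0. Dbp stood at 30.5, 2.67 and 8.69 CPM in the same order, and Arntl at 26.9, 4.28 and 11.6 CPM. Per1 differed less, at 78.1, 40.8 and 64.2 CPM. In T cell-like cells (620) Per1 stood at 98.7, Arntl at 22.7, Nr1d1 at 12.1 and Dbp at 11.5 CPM. The remaining immune cells were of another or no named type and are not described here. The library medians of Dbp were 16.3 CPM in macrophage-like, 2.42 in dendritic cell-like, 8.98 in NK cell-like and 14.5 in T cell-like cells. Levels in immune cells as a whole therefore also depend on the share of each cell type. The share of macrophage-like cells differed between libraries, and its part in the immune values was not tested.

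Within macrophage-like cells, Dbp was at 88.7 CPM in VCD_High_PBDE_E2 (61 UMIs, interval 67.8 to 113.9), 53.6 in VCD_E2_P4 (71 UMIs, 41.9 to 67.7), 48.5 in VCD_Low_E2_P4 (29 UMIs, 32.5 to 69.7) and 47.4 in VCD_High_PBDE_E2_P4 (42 UMIs, 34.2 to 64.1). The other 8 libraries were at 5.89 to 18.4 CPM, on 4 to 15 UMIs. Nr1d1 was at 106.1 CPM in VCD_High_PBDE_E2 (73 UMIs, interval 83.2 to 133.5), followed by 55.2 in VCD_E2_P4, and lowest at 6.86 in VCD_Vehicle_NormEnv. Arntl was highest in VCD_High_PBDE (56.6 CPM) and VCD_Low_E2 (51.3 CPM) and lowest in VCD_Vehicle (8.45 CPM, 4 UMIs), followed by VCD_High_PBDE_E2 (14.5 CPM, 10 UMIs), with overlapping intervals. The 4 libraries with the most Dbp were the same 4 as in immune cells as a whole, of which these cells are a part, so this is no separate reading.

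Immune cells were compared with fibroblasts in the same 12 libraries by edgeR's quasi-likelihood test on summed counts with library as a block, where 86.1% of 15318 genes passed (39.5% higher and 46.6% lower in immune cells). All 10 clock genes passed too, which is read against that background. Per1 (log2 fold change 0.78, SE 0.07, adjusted p = 2.851e-08) and Cry1 (0.27, SE 0.09, adjusted p = 0.007127) were higher in immune cells. Npas2 was lower by the most (-4.26, SE 0.21, adjusted p = 2.754e-12), followed by Cry2 (-2.91, SE 0.12, adjusted p = 2.836e-13), Dbp (-2.37, SE 0.09, adjusted p = 1.395e-13) and Per3 (-2.28, SE 0.08, adjusted p = 4.849e-14). Nr1d1 (-1.58, SE 0.12, adjusted p = 1.584e-09), Per2 (-1.12, SE 0.22, adjusted p = 0.0001925), Clock (-0.67, SE 0.06, adjusted p = 6.53e-09) and Arntl (-0.56, SE 0.15, adjusted p = 0.002948) were lower by less. The median of the 10 was -1.35, beside -0.10 over all genes tested.

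Which cells stood for each class mattered for 4 of the genes. With Fib_0-like cells set against macrophage-like cells, where 75.9% of genes passed, 7 of the 10 clock genes passed and Arntl was higher in the immune cells (log2 fold change 0.79, adjusted p = 8.527e-05). Clock (-0.02, adjusted p = 0.8881), Per2 (-0.36, adjusted p = 0.2517) and Nr1d1 (-0.16, adjusted p = 0.3967) no longer passed. Dbp (-1.85), Per3 (-1.91), Cry2 (-3.17) and Npas2 (-3.99) stayed lower and Per1 (0.72) and Cry1 (0.73) stayed higher in the immune cells.

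Hormone and PBDE effects were read in the 9 libraries that cross no hormone, E2 and E2 + P4 with no, low and high PBDE, by an additive fit of edgeR's quasi-likelihood test with 4 residual degrees of freedom. Libraries of the other factor stand in for replicates, so the p-values measure only the spread between these libraries. The E2 contrast set the average of the E2 and the E2 + P4 arms against the arm with no hormone. In fibroblasts 19% of 14854 genes passed, 8.75% lower and 10.2% higher, and 2 of the 10 clock genes passed, a share near that background. Clock (log2 fold change -0.25, SE 0.07, adjusted p = 0.03929) and Cry1 (-0.26, SE 0.07, adjusted p = 0.04999) fell. Both calls were close to the threshold and depended on the settings, with adjusted p from 0.02881 to 0.129 for Clock and from 0.04876 to 0.2051 for Cry1.

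The other 8 genes did not pass for E2 in fibroblasts. Arntl had a log2 fold change of -0.68 (SE 0.33, adjusted p = 0.1795), Per3 of 0.47 (SE 0.27, adjusted p = 0.2565), Per1 of -0.33 (SE 0.19, adjusted p = 0.2651) and Dbp of 0.31 (SE 0.43, adjusted p = 0.635). Values for Per2 (0.14), Npas2 (-0.08), Nr1d1 (-0.12) and Cry2 (-0.15) were nearer to 0. The median of the 10 was -0.14, beside -0.01 over all genes. Without VCD_High_PBDE_E2, Arntl was at -0.41 (adjusted p = 0.05194), Dbp at -0.09 and Per2 at -0.12. Without VCD_Low_PBDE the values of Dbp and Per2 moved the other way, to 0.87 for Dbp (adjusted p = 0.2626) and 0.96 for Per2 (adjusted p = 0.09014). With the library code as a covariate they were the same. Within a PBDE level the code sets only VCD_Low_PBDE apart, so that fit equals leaving this library out and is no second check. The E2 values of Dbp and Per2 thus turned on single libraries, in sign as well as in size.

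For E2 + P4 against E2 in fibroblasts, 0.0337% of genes passed (0.0202% higher and 0.0135% lower) and no clock gene did, nor did any at an unadjusted p under 0.05, where 10% of all genes stood. The log2 fold changes ran from -0.25 to 0.37, the latter for Dbp (SE 0.49, adjusted p = 0.8207). This contrast turned on VCD_High_PBDE_E2, a library with E2 alone: without it Dbp had a log2 fold change of 1.14 (adjusted p = 0.2135) and Arntl of -0.42, and neither passed.

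For high PBDE against none in fibroblasts, 0.323% of genes passed (0.108% higher and 0.215% lower) and no clock gene did, while 6 had an unadjusted p under 0.05, as 21.8% of all genes did. These were Cry2 (log2 fold change 1.32, SE 0.30, adjusted p = 0.08362), Per3 (1.04, SE 0.31, adjusted p = 0.1253), Nr1d1 (0.53, SE 0.17, adjusted p = 0.1357), Dbp (1.31, SE 0.49, adjusted p = 0.189), Per2 (1.23, SE 0.48, adjusted p = 0.2012) and Per1 (0.56, SE 0.23, adjusted p = 0.2124). Arntl was at -0.60 (SE 0.39, adjusted p = 0.4057), and the median of the 10 was 0.55 beside 0.01 over all genes. Without VCD_High_PBDE_E2, Cry2 was at 1.10 (adjusted p = 0.1768), Per2 at 0.66 (adjusted p = 0.469), Per3 at 0.56 (adjusted p = 0.2381), Dbp at 0.51 (adjusted p = 0.3812), Per1 at 0.37 (adjusted p = 0.4331), Nr1d1 at 0.28 (adjusted p = 0.197) and Arntl at -0.09 (adjusted p = 0.7738). The 3 libraries with no PBDE in this fit carry one code of the matrix names and the 3 with high PBDE the other, so that code and PBDE cannot be told apart between them. With the code as a covariate, estimated from the low PBDE libraries alone, no clock gene passed (Cry2 at 2.13, adjusted p = 0.2664, and Dbp at 2.80, adjusted p = 0.3354). By DESeq2, which called 868 genes here (5.84%) where edgeR called 48, Cry2 (1.31, adjusted p = 0.01639), Per2 (1.24, adjusted p = 0.04674) and Nr1d1 (0.52, adjusted p = 0.04677) passed.

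For low PBDE against none in fibroblasts, no gene passed (0%) and no clock gene had an unadjusted p under 0.05, beside 3.48% of all genes. Per2 had a log2 fold change of 0.77 (SE 0.49) and Dbp of 0.66 (SE 0.48), with adjusted p = 0.9991 by edgeR for both. DESeq2 called 5 genes of the whole table for this contrast. VCD_Low_E2 and VCD_Low_E2_P4 carry the other code of the matrix names than the libraries with no PBDE. Code and low PBDE cannot be told apart between those.

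**Figure D5:**
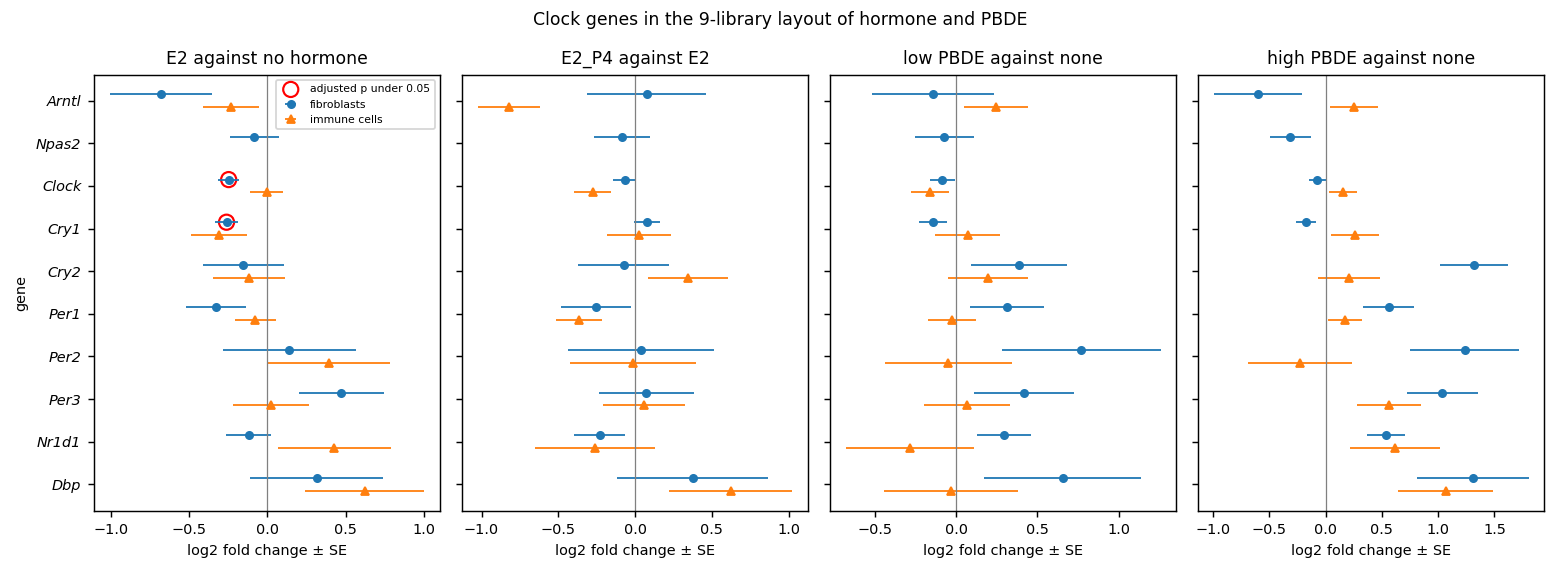
Log2 fold change of each clock gene in fibroblasts and immune cells by edgeR's additive fit over 9 libraries. Contrasts are E2, P4 added to E2, low PBDE and high PBDE. Bars are 1 SE, derived from the fold change and its F statistic. Clock and Cry1 for E2 in fibroblasts are the only calls, at -0.25 and -0.26.

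In immune cells 9 of the 10 clock genes had enough counts to test, all but Npas2, and none passed in any of the 4 contrasts. The share of 11632 genes that passed was 0.043% for E2 (0.0258% higher and 0.0172% lower), 0% for E2 + P4 against E2, 0% for low PBDE and 0.0172% for high PBDE, all of it lower. For E2 + P4 against E2, the unadjusted p was under 0.05 for 8.38% of all genes and for Arntl (log2 fold change -0.82, SE 0.20, adjusted p = 0.4784), Clock (-0.28, SE 0.12, adjusted p = 0.5932) and Per1 (-0.37, SE 0.15, adjusted p = 0.581). The 3 libraries with E2 + P4 were the lowest for Arntl, as the values above show. DESeq2 called 20 genes of the whole table for this contrast.

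For high PBDE in immune cells, only Dbp of the clock genes had an unadjusted p under 0.05, beside 10.8% of all genes (log2 fold change 1.07, SE 0.42, adjusted p = 0.4139), and without VCD_High_PBDE_E2 it was at 0.29 (adjusted p = 0.6015). For E2 Dbp was at 0.62 (SE 0.38, adjusted p = 0.6616), or 0.25 without that library (adjusted p = 0.645), and no clock gene had an unadjusted p under 0.05, nor did any for low PBDE (9.47% and 4.07% of all genes). DESeq2 called 123 genes for E2, 46 for high PBDE and 2 for low PBDE. For E2 + P4 against E2 the log2 fold changes of the 9 tested clock genes ran from -0.82 to 0.62 in the main analysis. VCD_High_PBDE_E2, a library with E2 alone, was the highest for Dbp, so leaving it out raises Dbp in this contrast. Without it the contrast gave 1.39 for Dbp (adjusted p = 0.09734) and -0.96 for Arntl (adjusted p = 0.1454), and neither passed.

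Whether an effect differed between immune cells and fibroblasts was tested by the interaction of class and contrast over 15097 genes. None of the 10 clock genes passed for E2 (background 2.18%, with 0.689% higher and 1.49% lower), E2 + P4 against E2 (0.0265%), low PBDE (0%) or high PBDE (0.0927%, with 0.0662% higher and 0.0265% lower), where 1, 1, 3 and 4 of them had an unadjusted p under 0.05, beside 12.6%, 5.99%, 4.09% and 7.79% of all genes. The nearest was Cry2 for high PBDE (difference in log2 fold change -1.13, adjusted p = 0.1517 by edgeR), whose level in immune cells stayed between 4.99 and 8.63 CPM. DESeq2 called 309, 23, 0 and 67 genes of the whole table for the 4 differences.

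The 3 libraries outside that layout are given with no test. Intact had 26.4 CPM of Dbp and 19.4 of Arntl in fibroblasts, beside 22.3 and 23.2 in VCD_Vehicle. VCD_Vehicle_NormEnv had 22.2 and 22.8 CPM, close to VCD_Vehicle for both genes. VCD_E2_ICI had 43.2 CPM of Dbp and 34.9 of Nr1d1, beside 24.8 and 21.4 in VCD_E2, and Arntl was at 21.2 beside 18.1 CPM. VCD_E2_ICI and VCD_Vehicle_NormEnv carry the other code of the matrix names than VCD_E2 and VCD_Vehicle. Code and treatment cannot be told apart in these readings.

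A further 23 genes tied to the clock were counted as a list. For E2 in fibroblasts 5 of the 22 tested passed, a share near the 19% over all genes. Bhlhe41, a repressor that competes for E-boxes, rose (log2 fold change 0.91, SE 0.22, adjusted p = 0.02991). The other 4 fell, among them the deubiquitinase gene Usp2 (-0.87, adjusted p = 0.009301) and the kinase genes Csnk1d (-0.33, adjusted p = 0.01362) and Csnk1e (-0.29, adjusted p = 0.03039), whose proteins mark PER for decay.

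None of the list passed in the other contrasts. For high PBDE in fibroblasts 9 of 22 had an unadjusted p under 0.05, beside 21.8% of all genes, among them Usp2 (log2 fold change 0.78, adjusted p = 0.07719), and Ciart (1.13), Hlf (1.04), Tef (0.93) and Nr1d2 (0.66) had positive values that did not pass. Over the 22 tested genes the log2 fold changes ran from -0.37 to 1.13 with a median of 0.16, beside 0.01 over all genes. Hlf and Tef belong to the family of Dbp, and Nr1d2 is the paralog of Nr1d1. Between classes 19 of 23 passed, beside 86.1% over all genes, 7 higher in immune cells (such as Ciart at 4.37, Cipc at 1.62 and Nfil3 at 1.50 on the log2 scale) and 12 lower (such as Rorb at -6.06, Arntl2 at -3.91 and Bhlhe41 at -2.89).

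The genes whose pattern over the 12 libraries was most like that of Dbp, by the mean of Pearson's r in both classes among 4078 genes of at least 20 CPM in each, were Igbp1 (0.74), Nab2 (0.72), Sult1a1 (0.71), Oxa1l (0.71) and Eif3f (0.70). Among the 5 most opposite were Grcc10 (-0.79), Bloc1s1 (-0.78) and Nme2 (-0.77). For Arntl the most alike were Ptp4a1 (0.77), Birc3 (0.72), Rps6ka3 (0.70), Nfil3 (0.70) and Atf4 (0.70), and the most opposite Naa35 (-0.76), Eif3k (-0.74), H2afv (-0.72), Npm1 (-0.72) and Eif3m (-0.72). Of these, Nfil3 is a clock gene, a repressor that acts on the same D-box motifs as Dbp. Among the 10 genes only Clock and Per1 were high enough in both classes to enter this set.

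Some genes of the loop also answer stress and glucocorticoids, so 2 lists of such genes were read beside them. The 14 genes of tissue dissociation stress (Fos, Jun, Egr1 and others) summed to 14635 CPM in VCD_High_PBDE_E2_P4 to 28180 in VCD_E2_ICI in fibroblasts, with VCD_High_PBDE_E2 at 18127, and to 9048.6 to 12674 CPM in immune cells. The 10 glucocorticoid-responsive genes (Fkbp5, Tsc22d3, Klf9 and others) summed to 5709.4 CPM in VCD_E2 to 13295 in VCD_Low_PBDE in fibroblasts, with VCD_High_PBDE_E2 at 7674, and to 1473 to 2608.6 CPM in immune cells. VCD_High_PBDE_E2 was the third highest of the 12 libraries in immune cells for both lists, at 12330 CPM and 2386.3 CPM. It was the highest or lowest library for neither list in either class.

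For E2 in fibroblasts all 14 stress genes had negative values (log2 fold changes from -0.87 to -0.24, median -0.60). Of them 12 passed, all but Nr4a1 and Dusp1, where 8.75% of all genes passed as lower. Of the 10 glucocorticoid-responsive genes 5 passed as lower: Tsc22d3 (-1.08), Cdkn1a (-0.996), Mt1 (-0.89), Mt2 (-0.65) and Klf9 (-0.50). Clock and Cry1 moved in the same direction in that contrast, and the part of these genes in their change was not tested. For high PBDE no gene of either list passed, with 3 of 14 and 5 of 10 at an unadjusted p under 0.05, beside 21.8% of all genes.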

How the data were processed

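Mammary gland cells were measured by 3′ single-cell RNA sequencing (Chromium v3), 1 library per group. The deposited matrices hold UMI counts per gene and barcode, which the authors made with Cell Ranger 3.1.0 (version from the submitters' processing notes) on mm10. The labels name a HiSeq and the study's methods a NovaSeq instrument. Groups were taken from the sample labels. The members and gene lists were chosen with earlier results of these data known.

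Barcodes with at least 500 genes and 1000 UMIs and at most 5% mitochondrial UMIs were kept, with medians of 11843 to 20446 UMIs per kept cell. No doublets were removed in the main analysis; removal by simulated-doublet scores was an alternative. Cells were clustered (scikit-learn 1.9.0, igraph 0.11.9) without genes of the clock, stress and glucocorticoid lists and named from markers. UMI counts were summed per library and class and tested with edgeR 4.0.16 (TMM, filterByExpr, Benjamini-Hochberg over all genes tested, threshold 0.05), in R 4.3.3. An SE beside an edgeR value is the absolute log2 fold change divided by the square root of the F statistic of its test. The study tested single cells, which are not replicates. Correlations used log2(CPM + 1) in scipy 1.17.1, and intervals were exact Poisson at 95%. On simulated counts with 200 genes changed by a log2 fold of 1, the fit for E2 in fibroblasts recovered 75.0% over 14854 genes and the fit for high PBDE in immune cells 58.0% over 11632 genes.

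All 10 members were named. Other clock genes were named where they passed, or where their values bear on a contrast (chosen after their values were seen), and the 5 genes most like and most opposite to Dbp and Arntl by correlation. A few genes that met these rules are not reported here. Alternatives were DESeq2 1.42.0, no TMM factors, no filter on low counts, a mitochondrial limit of 10%, doublets removed, single populations, the code in the matrix names as a covariate, VCD_Vehicle_NormEnv as a second vehicle, free RNA subtracted, a pseudocount of 0.1 and each library left out. Added after seeing the data were the study's negative selection on 6 genes and correlations without VCD_High_PBDE_E2. Motifs were searched in RefSeq promoters of GRCm38.p6.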

Additional observations from a re-analysis of the deposited data

Results flagged for a closer look

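None of the 10 clock genes was flagged. Of the stress and glucocorticoid-responsive genes read beside them, 8 had an effect of E2 against no hormone that differed between immune cells and fibroblasts by edgeR's interaction test, where 2.18% of all genes did. The difference (immune cells minus fibroblasts, log2 fold change) was 0.616 for Fos, 0.7861 for Jun, 0.5984 for Junb, 0.7157 for Egr1, 1.112 for Atf3 and 0.8537 for Zfp36 among the stress genes. It was 0.4473 for Mt1 and 0.9717 for Cdkn1a among the glucocorticoid-responsive genes. These genes were lower with E2 in fibroblasts. Groups of 1 library allow no search for a sample far from its own group.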

How the results depend on the processing

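The number of clock genes called for E2 in fibroblasts, 2 in the main analysis, was 1 with DESeq2, with no filter on low counts, with a mitochondrial limit of 10%, with doublets removed, in Fib_0-like cells alone and in cells with no UMI of the 6 genes of the study's negative selection (added after seeing the data). It was 0 with library sizes only and with the library code as a covariate, and 0 to 1 with each library left out. Clock kept its call without VCD_High_PBDE_E2 and without VCD_High_PBDE_E2_P4, and Cry1 lost it without each of the 9 libraries. Per1 was called without VCD_E2_P4 (-0.51, adjusted p = 0.02793) and Cry2 without VCD_High_PBDE (-0.59, adjusted p = 0.01337). For high PBDE in fibroblasts the number was 0 in the main analysis, 3 with DESeq2 and 0 to 1 with each library left out, the 1 being Cry2 without VCD_High_PBDE (1.74, adjusted p = 0.01009). The 6 relations between genes of opposite phase went to 0 with the 2 farthest libraries left out. The 2 relations between classes went to 0 in the same way, to 4 with code means subtracted and to 1 in Fib_0-like and macrophage-like cells. Arntl in immune cells against fibroblasts reversed to 0.79 in Fib_0-like and macrophage-like cells. The cause of these changes was not tested.

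Over all genes, calls ranged over the alternatives from 826 to 3136 for E2 in fibroblasts (main 2822), from 0 to 868 for high PBDE in fibroblasts (main 48), from 0 to 116 for E2 + P4 against E2 in fibroblasts (main 5) and from 0 to 243 for E2 in immune cells (main 5). In immune cells calls ranged from 0 to 57 for E2 + P4 against E2 (main 0), from 0 to 16 for low PBDE (main 0) and from 0 to 105 for high PBDE (main 2), and low PBDE in fibroblasts gave 0 to 5 (main 0). The difference between classes gave 150 to 529 for E2 (main 329), 1 to 72 for E2 + P4 against E2 (main 4), 0 to 1 for low PBDE (main 0) and 0 to 67 for high PBDE (main 14). Of the values for single genes under all alternatives, 2183 stayed on the same side of the threshold (159 of them, none called, with another sign), 42 lost a call, 14 gained one and 1 reversed. No paired analysis was possible because, for the treatment groups, each is 1 library and no replicate number pairs them (between cell classes, library was the block). Depth limits Per2 and Cry2 in immune cells, where counting error was as large as the spread between libraries, and Npas2, with 32 UMIs there.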

Other observations

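Clock genes were also read in cell types that were too few for a comparison between libraries. The 319 endothelial-like cells were spread unevenly, with 3 to 186 cells per library. Over all libraries together Dbp stood at 85.1 CPM there, with a library median of 61.3 CPM and a range from 8.88 to 187 CPM. Nr1d1 stood at 48.6 CPM, with a library median of 41.2 CPM and a range from 26.7 to 109.9 CPM. Arntl stood at 9.61 CPM, on 36 UMIs, and 2 libraries had no UMI of it. The 250 luminal epithelial-like cells came with 4 to 64 cells per library. Over all libraries together Dbp stood at 32.2 CPM and Nr1d1 at 25.6 CPM, above the library medians of 16.1 and 13.2 CPM, and libraries ran from 0 to 156 CPM for Dbp and from 0 to 87.9 CPM for Nr1d1. Arntl stood at 10.6 CPM (library median 10.7) and Per2 at 13.9 CPM (library median 16.8), the latter on 84 UMIs. No test was made on these cells.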
